A study of Mus musculus with 21 samples.

Results

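The 43 genes described here are a set of interferon-stimulated genes, taken by gene symbol from a table of 49510 genes, and all 43 were found there once each. They were divided by role into 10 type I targets (Ifit, Oas and Mx genes), 8 GTPases induced by interferon gamma (Gbp genes, Igtp, Irgm1 and Iigp1), 4 transcription factors, 2 genes of the ISG15 system, 6 nucleic acid sensors and 13 other effectors. All 43 passed the filter on low counts. The study sequenced RNA of T cells from Foxp3-GFP mice aged 8 weeks, taken on day 7 of a myocardial infarction, in which heart muscle dies for want of blood. Regulatory T cells (Tregs), which restrain immune responses, came from 4 sites: the infarcted heart, its draining mediastinal lymph node (MLN), a lymph node outside its drainage (NDLN) and spleen. Conventional T cells (Tconvs) came from heart, spleen and NDLN. Each of the 7 groups had 3 libraries, 21 in all. Every group carried the Foxp3-GFP reporter and the infarction, so no group was uninjured and none came from mice without the reporter. Whether the 3 replicates of a group are different animals is not in the labels, so p-values speak only of the spread over these libraries, and that spread may be technical.

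Interferons are cytokines by which cells announce infection or immune activation. Type I interferons (alpha and beta) signal through the receptor chains Ifnar1 and Ifnar2 to a complex with Stat2 and Irf9 that binds interferon-stimulated response elements, whereas interferon gamma, a product of T cells and NK cells, signals through Ifngr1 and Ifngr2 to genes that carry gamma-activated sites. The Ifit, Oas and Mx proteins bind or degrade viral RNA or block viral replication, and the guanylate-binding proteins (Gbp) and immunity-related GTPases (Igtp, Irgm1, Iigp1) act on membranes around intracellular pathogens. Many of these genes answer to both kinds of interferon, so the division into lists is by the better known inducer.

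Library totals ran from 14515387 to 28323649 counts, which bounds counting error only, and levels below are TMM-scaled CPM, counts relative to library size after trimmed-mean scaling, with replicates 1, 2 and 3 in that order. Sums over a list of genes or markers are instead CPM of the unscaled library total. The sort was checked with markers. The summed CPM of 4 Treg markers ran from 1324 to 2949 in Treg libraries and from 39.8 to 297 in Tconv libraries. Spread between replicates was large, with a biological coefficient of variation of 1.48. The libraries also fell into a set of 16 and a set of 5 (MLN Treg replicates 1 and 2, heart Treg replicate 1, heart Tconv replicates 1 and 2), in which mitochondrial ribosomal RNA took 0.954 to 12.3% and 0.0567 to 0.102% of counts. Every library of spleen and NDLN is among the 16, so results on the heart and the MLN are also given for the 16 alone where that changes a call. Fibroblast markers (Col1a1, Col1a2, Col3a1, Dcn and Pdgfra) summed to 43.9 to 375 CPM in Tregs of the heart and 1.44 to 117 in its Tconvs, against at most 5.18 in any lymphoid library. Of these 5, Col1a1, Col1a2, Col3a1 and Dcn had counts in all 3 heart Treg libraries, and Pdgfra was at 0 there and at 5 counts or fewer in every other library. The 9 macrophage and monocyte markers summed to 0.0746 to 50.8 CPM in heart Tregs, 0.447 to 164 in heart Tconvs, 16 to 78.6 in NDLN Tregs, 15 to 49.3 in spleen Tregs, 10.8 to 13.6 in MLN Tregs, 0.0742 to 31.5 in spleen Tconvs and 0 to 18 in NDLN Tconvs. Of the 9, Csf1r, Adgre1, C1qa and C1qb were at 0 counts in heart Tregs and Csf1r, Fcgr3 and Itgam in heart Tconvs. The highest counts of the others were 1403 counts of Lyz2, 706 of C1qb and 423 of Cd68 in heart Tconv replicate 1, 754 of Cd68 in heart Treg replicate 1 and 524 of Itgam and 412 of Fcgr3 in heart Treg replicate 3. The 5 CD8 and NK cell markers summed to 76.8 to 1369.8 CPM in Tregs of the heart and 935 to 1683 in its Tconvs, against 189 to 485, 139 to 262 and 117 to 406 in spleen, NDLN and MLN Tregs and 399 to 1423 and 66.4 to 83.8 in spleen and NDLN Tconvs. Nkg7, which activated T cells also express, gave most of that sum in both heart groups. Klrb1c had 172, 0 and 340 counts and Cd8b1 433, 640 and 131 in heart Tconvs, and Ncr1 was at 0 counts in all libraries but heart Treg replicate 1, which had 1. The 7 dendritic cell markers, among them H2-Aa and Siglech, summed to 299.6, 13.5 and 273 CPM in heart Tconvs, against 0 to 1.93 in NDLN Tconvs, 19 to 93.3 in spleen Tconvs, 0.932 to 30.7 in heart Tregs, 3.49 to 12.1 in MLN Tregs, 89.6 to 179 in NDLN Tregs and 171 to 395 in spleen Tregs. H2-Aa gave most of the sum in NDLN and spleen Tregs, at 3966, 2165 and 2412 counts and 3936, 10960 and 5881. Flt3, Siglech, Clec9a and Itgax were at 0 counts in both of these groups. In heart Tconvs H2-Aa had 3937, 36 and 2074 counts and Siglech 977, 0 and 3340. B cell markers (6 genes, Cd79a and Ighm among them) summed to 1213 to 4744 CPM in MLN, 1229 to 3378 in spleen, 1109 to 1322 in NDLN and 750.2 to 1253 in heart Tregs, against 252 to 338, 393 to 527 and 244 to 594 in the Tconvs of heart, spleen and NDLN. Haemoglobin genes (4 markers of red blood cells) summed to as much as 29903 CPM in MLN and 23782 in spleen Tregs, to 348 to 1153 in spleen Tconvs and to at most 30.6 in heart and NDLN libraries. The part of these other cell types in the results below was not tested.

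Promoters were read for the genes on which the results turn and for a leading gene of each interferon list, from 250 bases before to 50 bases after the transcription start (RefSeq, build GRCm38.p6, 300 bases each). Irf1 lies on the plus strand of chromosome 11 with 2 promoters in the table, of which that at chr11:53769764-53770063 is shown and that at chr11:53770223-53770522 held 0 matches of either kind. That of Samhd1 lies at chr2:157135047-157135346 on the minus strand, 1 of 2 of Ifi203 at chr1:173942443-173942742 on the minus strand (the other, at chr1:173942623-173942922, held 0 matches), that of Ifit1 at chr19:34640639-34640938 on the plus strand and that of Igtp at chr11:58199306-58199605 on the plus strand. Each is written 5′ to 3′ on the strand of its gene, and capitals mark matches to the letters GAAA-NN-GAAA on either strand, like an interferon-stimulated response element, or to TTC-NNN-GAA, which reads alike on both strands and is like a gamma-activated site.
Irf1: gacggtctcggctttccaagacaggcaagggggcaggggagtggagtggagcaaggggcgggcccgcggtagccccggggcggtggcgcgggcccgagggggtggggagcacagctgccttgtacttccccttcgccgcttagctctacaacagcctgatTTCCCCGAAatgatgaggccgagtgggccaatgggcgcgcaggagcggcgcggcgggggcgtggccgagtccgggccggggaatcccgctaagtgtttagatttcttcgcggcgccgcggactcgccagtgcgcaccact
Samhd1: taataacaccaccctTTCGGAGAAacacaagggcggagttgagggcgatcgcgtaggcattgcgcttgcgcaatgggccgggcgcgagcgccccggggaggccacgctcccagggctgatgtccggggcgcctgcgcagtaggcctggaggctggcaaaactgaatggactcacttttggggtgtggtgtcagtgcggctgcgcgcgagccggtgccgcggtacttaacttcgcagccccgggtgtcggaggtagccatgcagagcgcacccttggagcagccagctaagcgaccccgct
Ifi203: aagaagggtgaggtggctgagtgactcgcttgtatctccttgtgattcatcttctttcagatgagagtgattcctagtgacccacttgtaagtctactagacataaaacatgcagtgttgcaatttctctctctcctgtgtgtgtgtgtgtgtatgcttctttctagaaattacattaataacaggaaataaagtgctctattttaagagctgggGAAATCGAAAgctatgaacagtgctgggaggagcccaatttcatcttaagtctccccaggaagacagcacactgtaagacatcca
Ifit1: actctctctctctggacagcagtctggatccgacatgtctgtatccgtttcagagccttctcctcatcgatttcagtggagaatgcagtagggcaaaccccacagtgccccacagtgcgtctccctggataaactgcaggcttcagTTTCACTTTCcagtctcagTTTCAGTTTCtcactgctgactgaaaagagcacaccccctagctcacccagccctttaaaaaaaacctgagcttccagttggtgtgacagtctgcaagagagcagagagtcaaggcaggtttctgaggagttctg
Igtp: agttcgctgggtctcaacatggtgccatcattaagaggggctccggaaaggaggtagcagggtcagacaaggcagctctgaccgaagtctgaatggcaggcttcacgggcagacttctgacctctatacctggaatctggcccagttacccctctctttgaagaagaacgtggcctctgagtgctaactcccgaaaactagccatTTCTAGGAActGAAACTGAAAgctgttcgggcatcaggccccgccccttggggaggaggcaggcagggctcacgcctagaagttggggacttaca
Irf1 and Samhd1 each held 1 match to TTC-NNN-GAA and 0 to GAAA-NN-GAAA in these windows, Ifi203 held 1 match to GAAA-NN-GAAA, Ifit1 held 2, and Igtp held 1 of each kind. Of the 43 members, 30 had an entry, with 38 promoters among them. GAAA-NN-GAAA stood in 20 of the 38 (52.6%) and in 3.44% of all 32851 promoters. TTC-NNN-GAA stood in 11 of the 38 (28.9%) and in 8.30% of all. By list, GAAA-NN-GAAA stood in 4 of 8 promoters of type I targets and in 6 of 7 of the GTPases, and TTC-NNN-GAA in 2 of 8 and 3 of 7. A match is a run of letters, not a measured binding site.

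Members ranged from hardly detected to abundant. Ifi27l2a, the gene of a small protein strongly induced by interferon, had the highest mean level of the 43, 3979 CPM over the 21 libraries (range 692 to 10430.1), and gave 51.3% of the summed CPM of all members. Per kilobase of exon it also led, at 8593 CPM per kb, ahead of Ifitm3 at 118, Igtp at 114, Isg20 at 103 and Rtp4 at 102. Lowest per kilobase were Oasl1 at 0.658, Oas3 at 0.682 and Oasl2 at 0.699. The lists differed in how steady they were: 9 of 10 type I targets were at 0 counts in at least 1 library and 0 of 10 reached 1 CPM in all 21, whereas 5 of 8 GTPases, 3 of 4 transcription factors, 4 of 6 sensors and 10 of 13 other effectors did. The median coefficient of variation within groups was 1.18 over the type I targets and 0.543 over the GTPases, against 0.934 over all 14996 genes tested. Median levels differed as well, at 7.89, 92.4 and 8.98 CPM in that order, and the part of level in the spread was not tested.

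**Figure D1:**
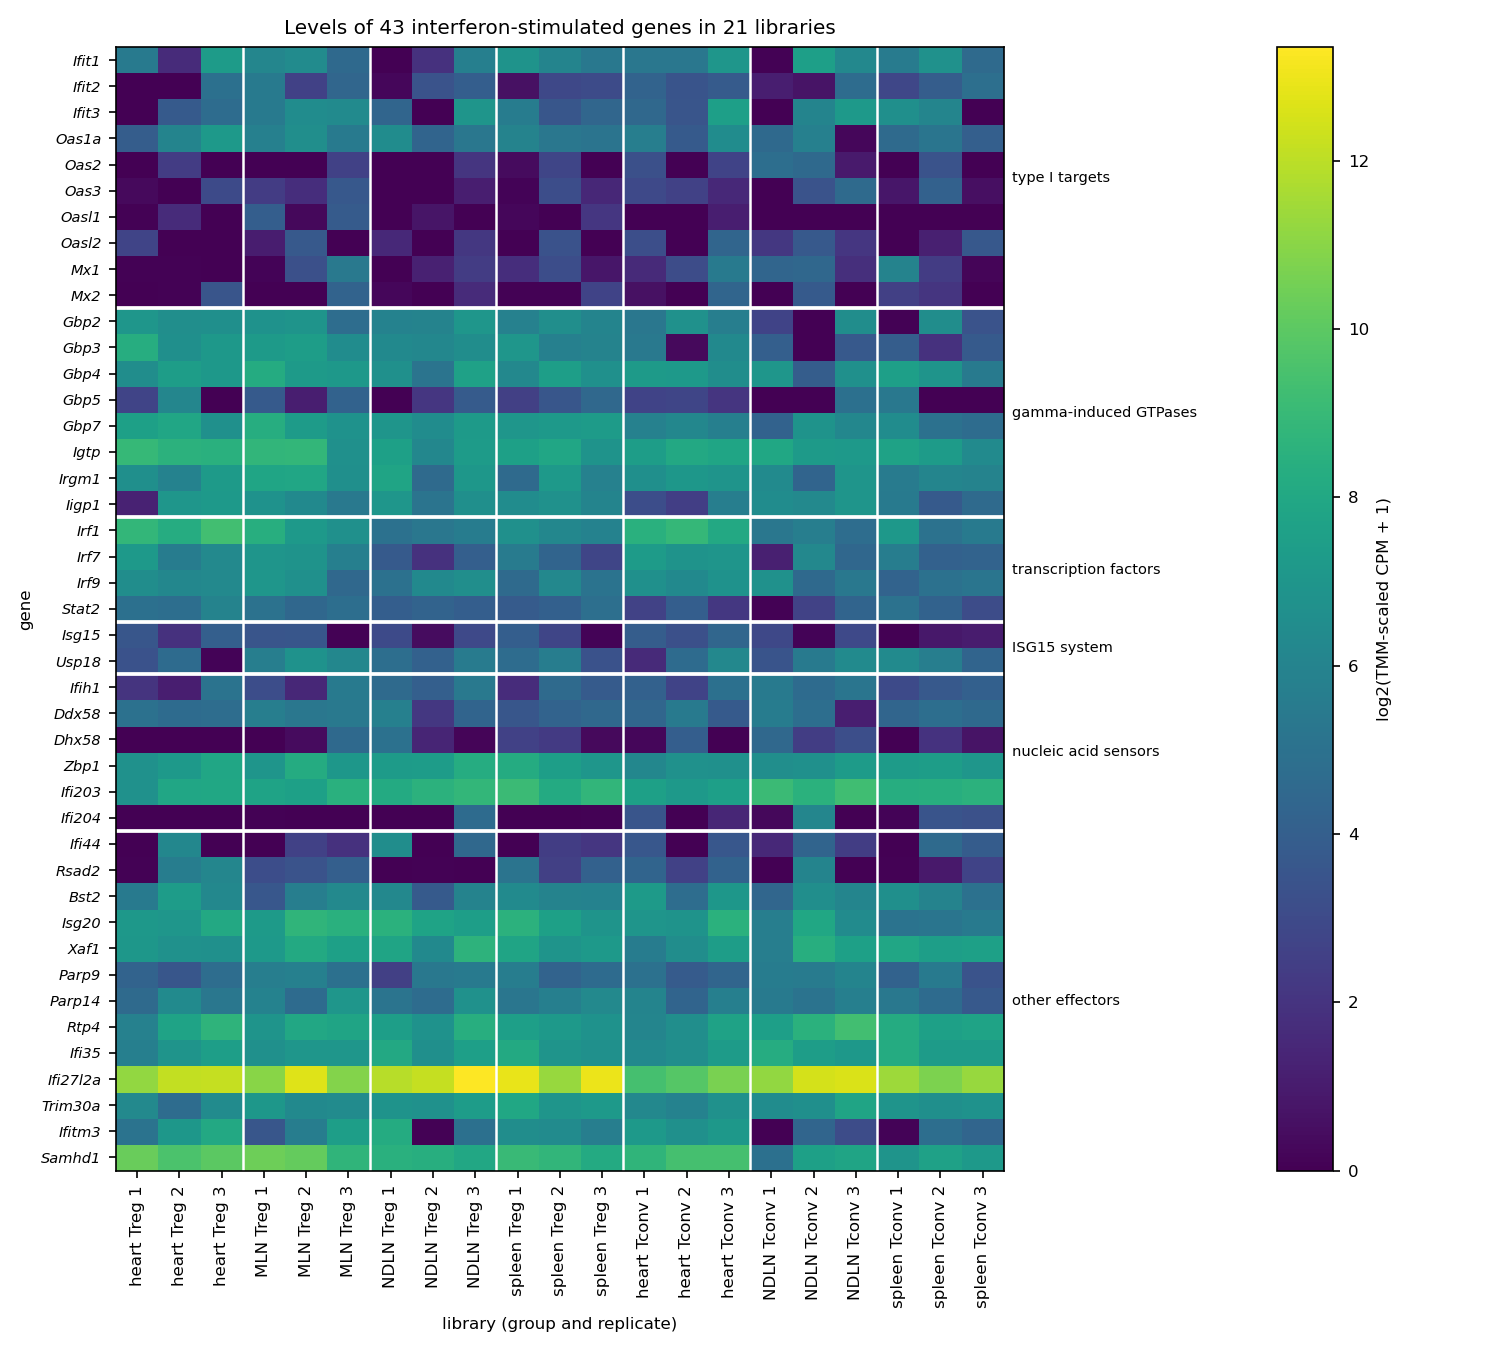
Level of each of the 43 members (rows, grouped by role list) in each of the 21 libraries (columns, 3 per group), as log2 of TMM-scaled CPM plus 1. Ifi27l2a is the brightest row in every library, and the rows of the type I targets hold many dark cells, 9 of those 10 genes being at 0 counts in at least 1 library.

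Irf1 was the member with the clearest heart pattern. It encodes interferon regulatory factor 1, a transcription factor that interferon gamma induces and that activated T cells also make (ENSMUSG00000018899, chromosome 11, 53770014 to 53778374, plus strand). In heart Tregs it stood at 456, 306 and 640.5 CPM and in heart Tconvs at 356, 470.3 and 263. MLN Tregs had 334, 147 and 101 CPM, spleen Tregs 103, 70.5 and 58.9 and NDLN Tregs 30.9, 38.6 and 48.3. In spleen Tconvs the values were 139, 31.9 and 44.2 CPM and in NDLN Tconvs 37.5, 51 and 26. Every heart library was above every spleen and NDLN library, the heart groups overlapped each other, and MLN replicate 1 alone among lymphoid libraries reached the heart range. The order of the group means was heart Treg (467 ± 168 CPM, SD, n = 3), heart Tconv (363 ± 104), MLN Treg (194 ± 124), spleen Treg (77.3 ± 22.7), spleen Tconv (71.7 ± 58.6), NDLN Treg (39.3 ± 8.75) and NDLN Tconv (38.2 ± 12.5). Neighbours in this order overlapped in every case.

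Irf1 rose in the heart against NDLN in both cell types by edgeR's quasi-likelihood test with Benjamini-Hochberg adjustment over all genes tested, with a gene called at an adjusted p under 0.05. In Tregs it was 11.9-fold higher (log2 fold change 3.57, SE 0.56, edgeR adjusted p = 0.00598) and in Tconvs 9.50-fold higher (log2 fold change 3.25, SE 0.55, edgeR adjusted p = 0.00505). In bulk samples, fewer cells with a transcript and less of it per cell cannot be told apart. Against spleen the differences were 6.04-fold in Tregs (log2 fold change 2.60, SE 0.54, edgeR adjusted p = 0.0608) and 5.06-fold in Tconvs (log2 fold change 2.34, SE 0.53, edgeR adjusted p = 0.053), which missed the threshold in edgeR while DESeq2 (adjusted p = 0.000201 and 0.0013) and limma-voom (0.00876 and 0.0352) called both. MLN against NDLN Tregs differed by 4.94-fold (log2 fold change 2.31, SE 0.53, edgeR adjusted p = 0.252). Without NDLN Treg replicate 2 the edgeR adjusted p of the Treg difference from NDLN was 0.0511, and among the 16 libraries alone that of Tconvs was 0.113, with log2 fold changes of 3.56 and 2.77. In Tregs the difference from NDLN among the 16 was 3.62 (edgeR adjusted p = 0.0188). Without heart Treg replicate 2 the difference of Tregs from spleen passed (edgeR adjusted p = 0.0457), as did that of Tconvs without spleen Tconv replicate 1 (0.0282) or heart Tconv replicate 3 (0.0387). Fibroblast marker sums were also higher in the heart groups by mean (226 ± 168 and 70.8 ± 61.3 CPM, SD, n = 3), as were CD8 and NK cell marker sums against NDLN and, in Tconvs, dendritic cell marker sums, and their part in the result was not tested.

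Of the other transcription factors, Irf9, the DNA-binding partner of Stat2, stood at 93.3, 70.3 and 77.9 CPM in heart Tregs, 127, 102 and 21.4 in MLN Tregs, 23.6, 75.5 and 32.4 in spleen Tregs and 31, 80.7 and 95.7 in NDLN Tregs. Its values were 102, 79.6 and 112 CPM in heart Tconvs, 18.2, 30.9 and 35.9 in spleen Tconvs and 108, 22.8 and 39.7 in NDLN Tconvs. The heart and spleen Tconvs did not overlap, but the difference did not pass (log2 fold change 1.79, SE 0.68, edgeR adjusted p = 0.285). Irf7, which amplifies type I interferon production, was chosen for mention after its values were seen. Its means were 90.5 ± 51.2 CPM in heart, 97.4 ± 39.1 in MLN, 23.7 ± 20.9 in spleen and 10.4 ± 6.67 in NDLN Tregs, and 133 ± 24.6, 28.1 ± 18.9 and 32 ± 37.5 in the Tconvs of heart, spleen and NDLN. Heart libraries were above spleen and NDLN libraries in both cell types, yet edgeR's adjusted p were 0.413, 0.198, 0.369 and 0.268. Stat2 ranged from 0.0586 to 62.3 CPM (median 17.5) and passed in none of the comparisons. Exons of Irf7 overlap those of Phrf1 on the opposite strand, and those of Irf9 overlap Rnf31, so their counts are uncertain where the counting could split or share reads.

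**Figure D2:**
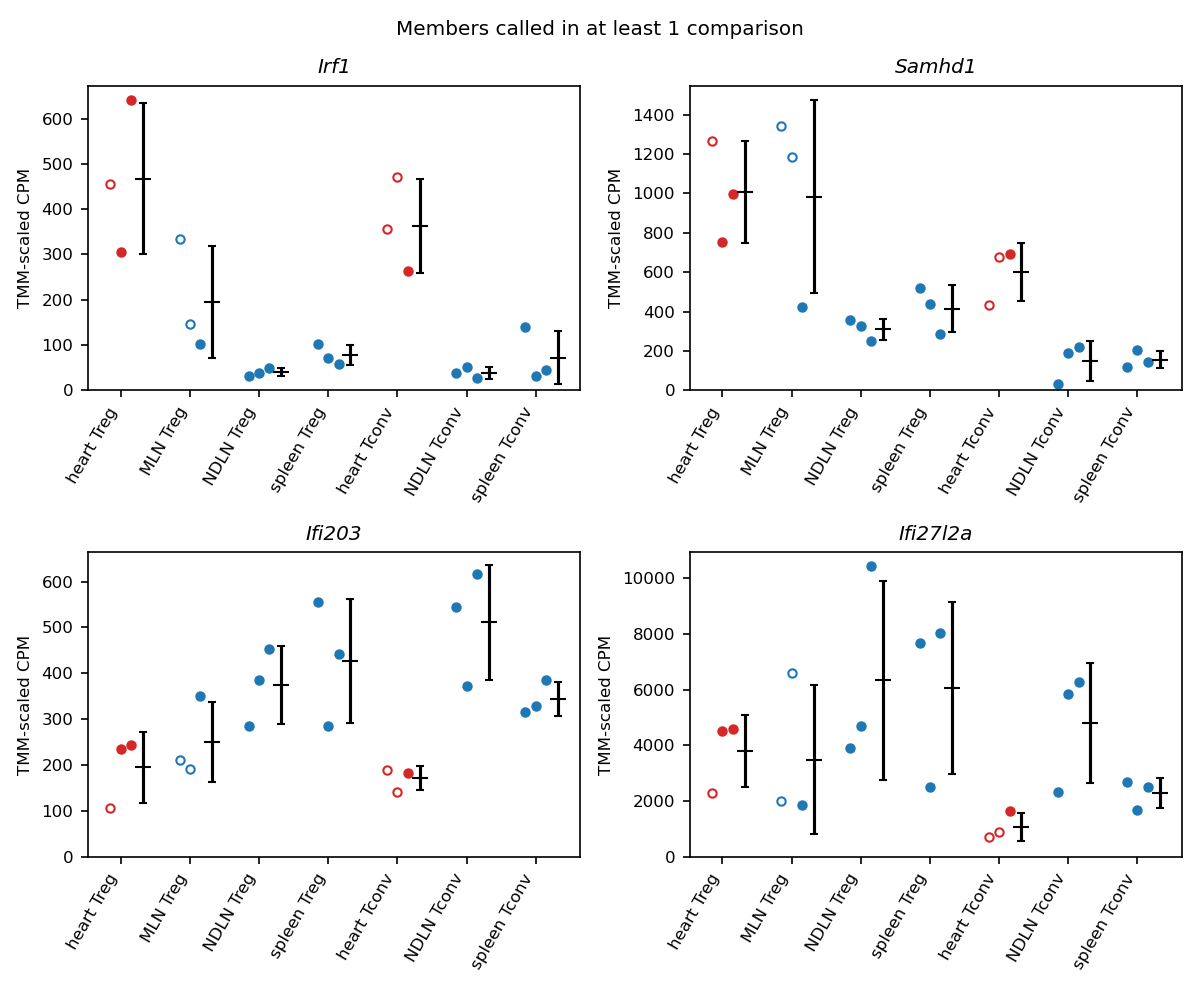
TMM-scaled CPM of the 4 members that passed edgeR's test in at least 1 comparison, in each library (points, heart in red, open circles for the 5 libraries of the smaller set) with mean ± SD per group (black). Irf1 and Samhd1 are higher and Ifi203 and Ifi27l2a lower in heart Tconvs than in NDLN Tconvs; for Irf1 the heart libraries, at 263 to 640.5, lie above all spleen and NDLN libraries.

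Levels of the type I targets differed by large factors between libraries of the same group. The lowest edgeR adjusted p of any of the 10 in a comparison of a pair of groups was 0.315. Ifit1, which binds viral RNA that lacks a host cap, had 44.9, 2.1 and 159 CPM in heart Tregs, 67.8, 85.4 and 22.4 in MLN Tregs, 114, 64.5 and 39.7 in spleen Tregs and 0, 2.79 and 52.4 in NDLN Tregs. In Tconvs it had 38.1, 37.8 and 128 CPM in heart, 46.2, 109 and 23.2 in spleen and 0.0586, 186 and 74.3 in NDLN. High and low libraries stood side by side within heart Tregs and NDLN Tconvs. Ifit3, of the same gene family, had 0, 12.9 and 25.3 CPM in heart Tregs and 44.6, 90.6 and 82 in MLN Tregs. Spleen Tregs had 48.6, 10.9 and 20.1 CPM of Ifit3 and NDLN Tregs 19.8, 0 and 122. Tconvs had 21.5, 10.5 and 185 CPM in heart, 98.6, 67.1 and 0 in spleen and 0, 64.6 and 151 in NDLN. The 3 MLN libraries lay above the 3 heart Treg libraries, without a call (log2 fold change -2.51, SE 2.27, edgeR adjusted p = 0.857). Ifit3b, a near-identical copy of Ifit3, was counted apart at group means of 2.13 to 13.9 CPM, and reads of the pair may be split between them.

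Oas1a, an enzyme whose product activates RNA-degrading RNase L, was the only one of the list with counts in every library. It had 14.2, 64.6 and 142 CPM in heart Tregs, 54.9, 94.3 and 44.8 in MLN Tregs, 62.5, 37.9 and 33.6 in spleen Tregs, 88.8, 18.6 and 37.8 in NDLN Tregs, 51.4, 12.9 and 89.9 in heart Tconvs, 23.4, 35.6 and 15.7 in spleen Tconvs and 22.7, 55.9 and 0.173 in NDLN Tconvs. Ifit2, another Ifit gene, had 0, 0 and 29.1 CPM in heart Tregs, 43.5, 5.01 and 20.2 in MLN Tregs, 0.501, 6.47 and 7.26 in spleen Tregs, 0.191, 9.63 and 14.9 in NDLN Tregs, 18.2, 9.89 and 13.5 in heart Tconvs, 6.23, 14.1 and 28.6 in spleen Tconvs and 1.17, 0.626 and 25.6 in NDLN Tconvs. It was at 0 counts in 2 of the 3 heart Treg libraries. Mx1, a GTPase that blocks influenza and related viruses, had its lowest mean in heart Tregs, with 0.044, 0.0395 and 0 CPM, 2 counts in all. It stood at 0.082, 8.7 and 41 CPM in MLN Tregs, 2.37, 7.75 and 0.751 in spleen Tregs, 0, 1.33 and 4.11 in NDLN Tregs, 1.98, 7.71 and 43.7 in heart Tconvs, 62.7, 4.25 and 0.115 in spleen Tconvs and 19.8, 21.4 and 2.42 in NDLN Tconvs. MLN Tregs held 605-fold more Mx1 per count of TMM-scaled library size than heart Tregs (95% counting interval 167 to 5001) and heart Tconvs 659-fold more (182 to 5447), intervals that cover counting error only. MLN Treg replicate 3 and heart Tconv replicate 3 held most of those counts, and without them the ratios were 146 and 185. EdgeR called neither (adjusted p = 0.449 and 0.601), whereas DESeq2 called both (adjusted p = 0.000291 and 0.000292) and limma-voom neither (0.213 and 0.0539). The remaining Oas2, Oas3, Oasl1, Oasl2 and Mx2 had means of 1.72 to 4.82 CPM over the 21 libraries, and each was at 0 counts in 4 to 12 of them. Mx2 is annotated as a polymorphic pseudogene in GENCODE M21.

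Summed over the list, type I targets reached 78.4, 81 and 347 CPM of the library total in heart Tregs, 312, 345 and 280.1 in MLN Tregs, 217, 161 and 108 in spleen Tregs and 105, 28.8 and 215 in NDLN Tregs. In Tconvs the sums were 198, 102 and 519.7 CPM in heart, 208, 261 and 73.1 in spleen and 64.3, 335 and 224 in NDLN. MLN Tregs had the smallest SD (313 ± 32.7 CPM, SD, n = 3) and lay above all spleen and NDLN Treg libraries, a separation that ended with TMM scaling, where the lowest MLN library was at 231 CPM and the highest NDLN Treg library at 241. Heart Tregs (169 ± 155) and heart Tconvs (273 ± 219) each held 1 high library, replicate 3 in both. Dendritic cell marker sums were high in heart Tconv replicates 1 and 3 and low in replicate 2, and their part was not tested. Relative to NDLN Tregs all 10 type I targets had a positive log2 fold change in MLN Tregs, with a median of 1.57, where 56.8% of all genes tested were positive and their median was 0.15. Heart Tregs were below MLN Tregs in 8 of 10 (median -1.25) and below heart Tconvs in 7 of 10 (median -0.91), where 43.3% and 43.7% of all genes were positive with medians of -0.12 and -0.12. Both MLN Treg replicates 1 and 2 belong to the smaller library set, and comparisons that share MLN or heart libraries are not independent of each other.

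**Figure D3:**
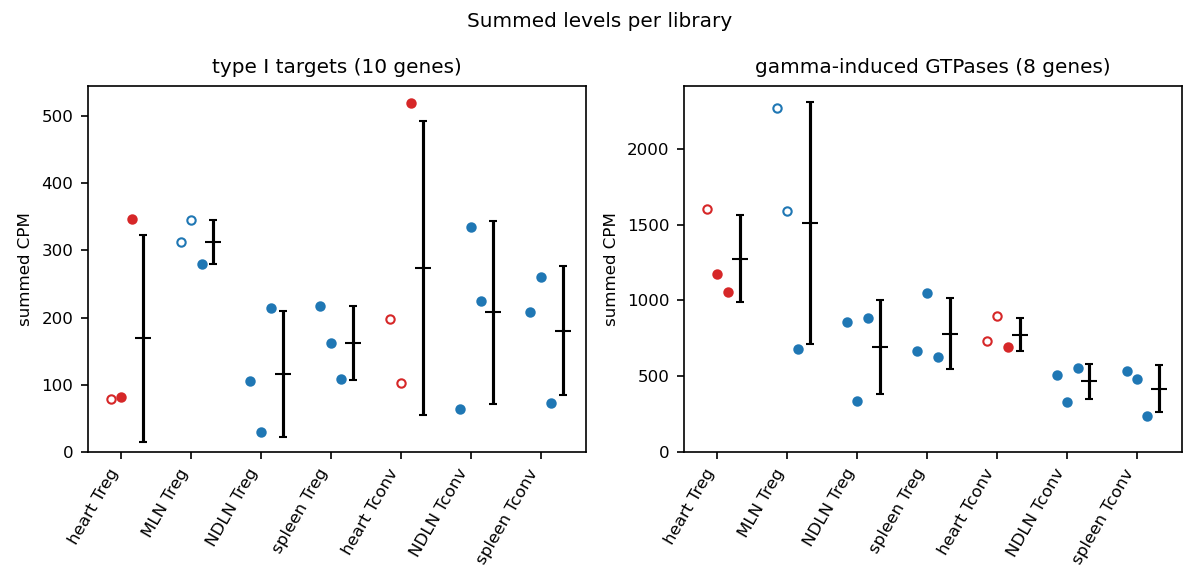
Summed CPM of the 10 type I targets (left) and of the 8 GTPases induced by interferon gamma (right) in each library, with mean ± SD per group; heart in red, open circles for the 5 libraries of the smaller set. On the left the MLN Treg libraries stay within 280.1 to 345 CPM while heart Tconvs span 102 to 519.7; on the right heart Treg libraries, at 1052 to 1600.2, lie above all spleen and NDLN libraries of both cell types.

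The GTPases induced by interferon gamma were more abundant and steadier. Igtp (Irgm3), an immunity-related GTPase of the endoplasmic reticulum, led the list at 499, 386 and 349.6 CPM in heart Tregs, against 193, 242 and 115 in spleen, 194, 71.4 and 161 in NDLN and 447, 450.4 and 104 in MLN Tregs. Tconvs had 171, 268 and 226 CPM in heart, 204, 157 and 81.9 in spleen and 242, 153 and 142 in NDLN. Heart Tregs lay above all spleen and NDLN Treg libraries and above all heart Tconv libraries, but the differences of 1.17, 1.53 and 0.89 on the log2 scale did not pass (edgeR adjusted p = 0.413, 0.181 and 0.608). Exons of Igtp overlap those of Irgm2, so its counts are uncertain. Gbp7, a guanylate-binding protein, had 189.9, 235 and 102 CPM in heart Tregs, 324, 158 and 113 in MLN, 128, 149 and 159 in spleen and 122, 87.8 and 156 in NDLN Tregs. In Tconvs it had 58.3, 72 and 53.7 CPM in heart, 88.5, 30.4 and 25.3 in spleen and 17.1, 116 and 72.4 in NDLN. It was thus higher in Tregs than in Tconvs without overlap in heart and in spleen, with log2 fold changes of 1.52 and 1.60 that did not pass (edgeR adjusted p = 0.601 and 0.62).

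Gbp4 and Irgm1 overlapped between Tregs and Tconvs in heart, spleen and NDLN. Gbp4 had 92.9, 171 and 136 CPM in heart Tregs, 290.5, 151 and 136 in MLN, 74.7, 176 and 105 in spleen, 103, 34.1 and 201 in NDLN Tregs, 152, 149 and 91.3 in heart Tconvs, 186, 118 and 44.7 in spleen and 129.7, 14.2 and 102 in NDLN Tconvs. Its exons overlap those of Gbp8 and Gbp9, so its counts are uncertain. Irgm1, which regulates the other immunity-related GTPases and autophagy, had 99.7, 59.6 and 156 CPM in heart Tregs, 233, 241 and 98 in MLN, 23.8, 143 and 58.1 in spleen, 225, 23.1 and 134 in NDLN Tregs, 98.4, 131 and 119 in heart Tconvs, 45.9, 67 and 62.3 in spleen and 83.8, 18.7 and 123 in NDLN Tconvs. Heart and spleen Tconvs did not overlap for Irgm1 (log2 fold change 0.99, SE 0.72, edgeR adjusted p = 0.589). Gbp2, Gbp3, Gbp5 and Iigp1 had means of 11.6 to 78 CPM, and Gbp3, whose Treg libraries in heart, spleen and NDLN all lay above the Tconv libraries of the same tissue, had means of 183 ± 114, 82.7 ± 41.2 and 81.3 ± 11.1 CPM in those Tregs and 40.1 ± 39.4, 10 ± 6.32 and 9.26 ± 8.2 in the Tconvs. Gbp3 was chosen for mention after its values were seen, and it passed in none of these (edgeR adjusted p = 0.652, 0.62 and 0.425).

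Summed, the 8 GTPases reached 1600.2, 1173 and 1052 CPM in heart Tregs, 2271, 1587 and 677 in MLN Tregs, 667, 1048 and 624 in spleen Tregs and 858, 337 and 879.7 in NDLN Tregs. The Tconv sums were 732, 895 and 688 CPM in heart, 532, 482 and 238 in spleen and 507, 329.9 and 555 in NDLN. Heart Treg sums (1275 ± 288 CPM, SD, n = 3) lay just above the highest spleen Treg library and clear of NDLN Tregs and heart Tconvs, and heart Tconv sums (772 ± 109) lay above those of both lymphoid Tconv groups. With TMM scaling the heart Treg libraries stayed above those of spleen and NDLN (lowest 1131 CPM, against at most 978 and 986), whereas heart Tconvs, at 572 CPM at the lowest, overlapped spleen and NDLN Tconvs, at 621 and 695 at the highest. For heart against spleen Tregs all 8 log2 fold changes were positive with a median of 0.53, where 46.8% of all genes were positive. For heart Tregs against heart Tconvs 7 of 8 were positive with a median of 1.21, where 43.7% of all genes were positive and the median of all genes was -0.12. In the same comparison 7 of 10 type I targets were negative, and in NDLN Tregs against NDLN Tconvs 8 of 10 were (median -2.03) while 5 of 8 GTPases were positive (0.61). These medians are descriptions of the lists, without a test.

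**Figure D4:**
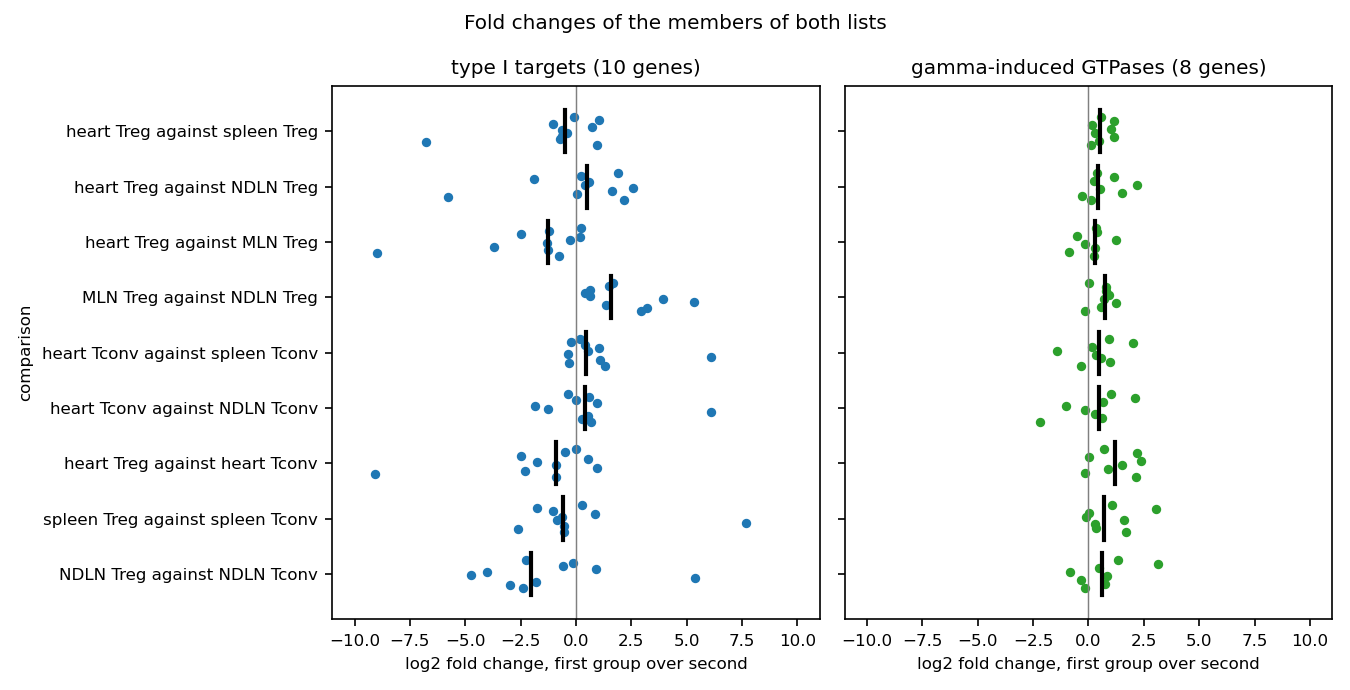
log2 fold change of each type I target (left, 10 genes) and each GTPase induced by interferon gamma (right, 8 genes) in the 9 comparisons of a pair of groups, first group over second, with the median as a black bar. The type I targets scatter widely, with Mx1 at the far left in comparisons of heart Tregs, and all 10 are to the right of 0 for MLN against NDLN Tregs; the GTPases stay closer together and are mostly to the right of 0.

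In the ISG15 system, Isg15 itself, a small protein that is attached to others as ubiquitin is, was low, with 10.8, 2.73 and 15.4 CPM in heart Tregs, 10.7, 11 and 0.0454 in MLN, 15, 5.87 and 0.0835 in spleen and 7.1, 0.348 and 6.71 in NDLN Tregs. It had 14.2, 8.41 and 19.8 CPM in heart Tconvs, 0, 0.786 and 1.04 in spleen and 6.33, 0.0835 and 6.65 in NDLN Tconvs. All heart Tconv libraries were above all other Tconv libraries, with edgeR adjusted p of 0.407 against spleen and 0.706 against NDLN. Usp18, which removes ISG15 and dampens type I receptor signalling, was highest in MLN Tregs with 51.5, 110.3 and 71.9 CPM, against 9.25, 24.8 and 0.0759 in heart, 25.5, 50 and 9.22 in spleen and 27, 16.7 and 45.3 in NDLN Tregs. Its Tconv values were 2.03, 24.3 and 74.5 CPM in heart, 83.1, 50.8 and 18.9 in spleen and 9.97, 44.6 and 82.5 in NDLN. MLN libraries lay above heart Treg libraries without a call (log2 fold change -2.77, SE 1.31, edgeR adjusted p = 0.496).

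Among the nucleic acid sensors Ifi203, a member of the interferon-inducible p200 family of DNA-binding proteins, went the other way from Irf1 (ENSMUSG00000039997, chromosome 1, 173920407 to 173942672, minus strand). It had 190.2, 141 and 183 CPM in heart Tconvs against 544, 373 and 617 in NDLN and 317, 329.7 and 386 in spleen Tconvs. Heart Tregs had 105, 236 and 243 CPM, MLN Tregs 211, 191 and 351, spleen Tregs 555, 285 and 442 and NDLN Tregs 286, 385 and 453. All heart libraries were below all spleen and NDLN libraries. Ifi203 fell in heart Tconvs against NDLN Tconvs (log2 fold change -1.58, SE 0.35, edgeR adjusted p = 0.0189), a 2.99-fold difference. Its differences from spleen Tconvs (-1.01 on the log2 scale), spleen Tregs (-1.13) and NDLN Tregs (-0.94) did not pass (edgeR adjusted p = 0.215, 0.316 and 0.268). The call was lost with the library set as a covariate (edgeR adjusted p = 0.188) and without heart Tconv replicate 1 (0.0712), heart Tconv replicate 2 (0.107) or NDLN Tconv replicate 3 (0.0664). Over the 6 libraries left out in turn its log2 fold change ran from -1.76 to -1.42, and with the covariate it was -1.08. Its exons overlap those of Mndal, a relative on the same strand, so its counts are uncertain.

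Zbp1, a sensor of Z-form nucleic acid that can trigger necroptosis, had group means from 93.9 CPM in heart Tconvs to 212 in NDLN Tregs, with 108, 149 and 239 CPM in heart Tregs, 126, 299 and 131 in MLN, 293, 175 and 127 in spleen and 159.7, 168 and 308 in NDLN Tregs. In heart Tconvs it had 71.6, 107 and 103 CPM, in spleen Tconvs 162, 169 and 127 and in NDLN Tconvs 97.2, 104 and 160.1. Ifih1 (MDA5) and Ddx58 (RIG-I), sensors of double-stranded RNA, had medians of 16.1 and 24.5 CPM and were at 1 CPM or more in all 21 libraries. Ifi204 had 0 counts over the 3 heart Treg libraries together, and was near 0 in most other Treg libraries as well. It had 0, 0 and 1 counts in spleen, 1, 0 and 0 in MLN and 0, 0 and 615 in NDLN Tregs. Dhx58 (LGP2), a regulator of Ifih1 and Ddx58, also had 0 counts over the 3 heart Treg libraries together. Against that floor of 3 counts over the group, Dhx58 was at least 74.6-fold higher in spleen, 268-fold higher in NDLN and 186-fold higher in MLN Tregs and at least 131-fold higher in heart Tconvs. Single libraries carried most of these counts, 653 of 684 in NDLN Treg replicate 1, 492 of 498 in MLN Treg replicate 3 and 363 of 367 in heart Tconv replicate 2. Without the library with the most counts (an alternative chosen after seeing the data), the bounds were 62.1-fold for spleen, 18.2-fold for NDLN and 3.37-fold for MLN Tregs and 2.2-fold for heart Tconvs. Dhx58 and Ifi204 were at 0 counts in 6 and 11 of the 21 libraries, and edgeR called neither (adjusted p from 0.244 to 0.601 for Dhx58 in these comparisons). DESeq2 called Dhx58 in each of them (adjusted p from 0.00151 to 0.0177). Dhx58 and Ifi204 were chosen for mention after their values were seen.

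Of the other effectors Samhd1, an enzyme that destroys the building blocks of DNA and so restricts retroviruses, was higher in the heart (ENSMUSG00000027639, chromosome 2, 157097533 to 157135265, minus strand). It had 1269, 752 and 998 CPM in heart Tregs, 1340.5, 1186 and 424 in MLN, 521, 439 and 284 in spleen and 354, 325 and 251 in NDLN Tregs. In heart Tconvs it had 432, 677 and 692 CPM, in spleen Tconvs 120.2, 202 and 146 and in NDLN Tconvs 29.7, 191 and 221. Heart libraries lay above spleen and NDLN libraries in both cell types, and in heart, spleen and NDLN alike Treg libraries lay above Tconv libraries. Samhd1 rose in heart Tconvs against NDLN Tconvs by 4.08-fold (log2 fold change 2.03, SE 0.53, edgeR adjusted p = 0.0404). The other differences, 1.94 on the log2 scale against spleen Tconvs, 1.28 and 1.70 for heart Tregs against spleen and NDLN Tregs and 0.74 for heart Tregs against heart Tconvs, did not pass (edgeR adjusted p = 0.0916, 0.413, 0.157 and 0.735). The call was lost in limma-voom (adjusted p = 0.0834), with the library set as a covariate (0.175) and without any 1 of heart Tconv replicates 1, 2 and 3 (0.0793, 0.118 and 0.0813) or NDLN Tconv replicates 1 and 2 (0.066 and 0.0628, all by edgeR). Its log2 fold change then ran from 1.54 to 2.44, and was 1.73 with the covariate.

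Ifi27l2a (ENSMUSG00000079017, chromosome 12, 103442167 to 103443680, minus strand) was lowest in heart Tconvs, at 692, 896 and 1646 CPM, against 2327, 5837 and 6263 in NDLN and 2677, 1660.0 and 2488 in spleen Tconvs. Heart Tregs had 2303, 4504 and 4579 CPM, MLN Tregs 2018, 6579 and 1855, spleen Tregs 7658, 2513 and 8043 and NDLN Tregs 3888, 4694 and 10430.1. All heart Tconv libraries were below all other libraries, the closest pair being spleen Tconv replicate 2 at 1660.0 and heart Tconv replicate 3 at 1646 CPM. Ifi27l2a fell in heart Tconvs against NDLN Tconvs by 4.46-fold (log2 fold change -2.16, SE 0.55, edgeR adjusted p = 0.0381). Heart Tregs were 3.52-fold above heart Tconvs without a call (log2 fold change 1.82, SE 0.55, edgeR adjusted p = 0.58). The call against NDLN was lost in limma-voom (adjusted p = 0.538), with the library set as a covariate (0.183 by edgeR) and without heart Tconv replicate 1 or 2 (0.17 and 0.151) or NDLN Tconv replicate 2 or 3 (0.0922 and 0.105). With a library left out its log2 fold change ran from -2.60 to -1.92, and with the covariate it was -1.95.

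Isg20, an RNA exonuclease, was low in spleen Tconvs, at 32.3, 35.6 and 42.7 CPM, below every library of the other groups. Heart Tconvs had 124, 113 and 368 CPM and NDLN Tconvs 50.8, 245 and 85.2, and Tregs had 137, 129 and 263 in heart, 153, 418 and 357 in MLN, 381, 193 and 119.8 in spleen and 368, 213 and 177 in NDLN. Spleen Tregs were 6.27-fold above spleen Tconvs (log2 fold change 2.65, SE 0.62, edgeR adjusted p = 0.18), and heart Tconvs 5.47-fold above spleen Tconvs (log2 fold change 2.45, SE 0.61, edgeR adjusted p = 0.0685), neither passing. The heart-spleen difference in Tregs minus that in Tconvs was -2.84 on the log2 scale (edgeR adjusted p = 0.596; DESeq2 0.0421). Rsad2 (viperin), which makes a chain-terminating nucleotide, had 0.044, 49.2 and 68.9 CPM in heart Tregs and 0, 0.058 and 0 in NDLN Tregs, where a single count was found over the 3 libraries. It had 8.03, 9.71 and 15.5 CPM in MLN Tregs, 34.3, 4.86 and 16.8 in spleen Tregs, 18.9, 5.01 and 17.4 in heart Tconvs, 0.0433, 0.865 and 5.53 in spleen Tconvs and 0, 65.1 and 0 in NDLN Tconvs. The NDLN Tconv level is that of replicate 2 alone. NDLN Tconvs held 1875-fold more Rsad2 per count of TMM-scaled library size than NDLN Tregs (95% counting interval 336 to 74110), which edgeR did not call (adjusted p = 0.302), and without NDLN Tconv replicate 2 the fitted difference turned from -9.88 to 2.04 on the log2 scale.

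Rtp4, a chaperone of receptors at the cell surface, had 57.7, 212 and 414 CPM in heart Tregs, 119, 254 and 222 in MLN, 188, 142 and 112 in spleen and 178, 111 and 330.2 in NDLN Tregs. Its Tconv values were 65.8, 96.3 and 202 CPM in heart, 291, 189 and 209 in spleen and 185, 366 and 622 in NDLN, with heart and NDLN Tconvs overlapping (log2 fold change -1.69, SE 0.60, edgeR adjusted p = 0.146). The remaining effectors passed in no comparison. Xaf1, Ifi35 and Trim30a had medians of 169.8, 137 and 106 CPM and were at 1 CPM or more in all 21 libraries, as were Bst2 (tetherin), Parp9 and Parp14, with medians of 62.3, 29.6 and 39.4. Ifi44 ranged from 0 to 91 CPM and was at 0 counts in 7 libraries. Ifitm3, which blocks viral entry and has close relatives in Ifitm1 and Ifitm2, ranged from 0 to 299 CPM. Parp9 shares exon positions with Dtx3l on the opposite strand, so without a stated strand setting its counts are uncertain.

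Heart and lymphoid Tregs were compared to ask what marks Tregs at the site of injury. Against NDLN Tregs, 1 member was called by edgeR, Irf1, which was higher, where 0.533% of all genes tested were called and 0.32% were called higher; 10 had an unadjusted p under 0.05 (15.5% of all genes), DESeq2 called 8 (13.2%) and limma-voom 1 (3.05%). In that comparison the libraries of the groups did not overlap for 6 members that were higher (8.5% of all genes) and 3 that were lower (11.1%). Against spleen Tregs 0 members were called by edgeR (0.147% of all genes); 7 had an unadjusted p under 0.05 (11.7% of all genes), DESeq2 called 6 (9.48%) and limma-voom 1 (1.89%). Here the libraries of the groups did not overlap for 6 members that were higher (6.66% of all genes) and 4 that were lower (8.83%). Igtp, Irf1, Irf7 and Samhd1 were higher without overlap in both comparisons, and Dhx58, Ifi203 and Trim30a lower, but the heart Treg libraries are shared between them. For Dhx58 the separation rests on few counts, 0 in heart Tregs against 109, 113 and 6 in spleen and 653, 28 and 3 in NDLN Tregs. Against MLN Tregs edgeR called 0 members (0.0667% of all genes); 4 had an unadjusted p under 0.05 (9.58% of all genes), DESeq2 called 3 (7.8%) and limma-voom 0 (1.51%). There the libraries of the groups did not overlap for 0 members that were higher (4.7% of all genes) and 6 that were lower (7.7%). Those lower in the heart were Ifit3, Mx1, Usp18, Ddx58, Xaf1 and Parp9. The separation of Mx1 rests on 1, 1 and 0 counts in heart Tregs against 2, 172 and 903 in MLN Tregs.

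MLN against NDLN Tregs contrasts the node that drains the heart with one that does not. Irf1, Irf7, Samhd1, Usp18, Rsad2, Oas3 and Stat2 were higher in all 3 MLN libraries than in all NDLN libraries. No member passed: edgeR called 0 members (0.00667% of all genes), while 6 had an unadjusted p under 0.05 (9.66% of all genes), DESeq2 called 4 (5.83%) and limma-voom 0 (0.28%). Altogether the libraries of the groups did not overlap for 7 members that were higher (9.4% of all genes) and 0 that were lower (7.2%). Among the 16 libraries alone the MLN group is replicate 3 only, and the log2 fold change of Irf1 was 1.40 against 2.31 with all libraries.

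In Tconvs the heart differed from NDLN by 4 called members, 2 higher (Irf1, Samhd1) and 2 lower (Ifi203, Ifi27l2a), where edgeR called 2.88% of all genes, 1.54% higher and 1.34% lower. Of the members 7 had an unadjusted p under 0.05 (18.6% of all genes), DESeq2 called 4 (18.9%) and limma-voom 2 (7%). With the library set as a covariate edgeR called only Irf1, and the share of all genes called in that refit is not given here. Among the 16 libraries the heart Tconvs are replicate 3 alone, so that refit cannot show whether these calls hold. For these groups the libraries of the groups did not overlap for 5 members that were higher (16.6% of all genes) and 4 that were lower (8.06%). Against spleen Tconvs 0 members were called by edgeR (0.473% of all genes); 6 had an unadjusted p under 0.05 (12.5% of all genes), DESeq2 called 4 (10.6%) and limma-voom 1 (1.81%). Between heart and spleen Tconvs the libraries of the groups did not overlap for 8 members that were higher (14.3% of all genes) and 4 that were lower (9.97%). The higher ones were Irgm1, Irf1, Irf7, Irf9, Isg15, Isg20, Ifitm3 and Samhd1 and the lower ones Zbp1, Ifi203, Xaf1 and Ifi27l2a.

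Tregs and Tconvs of the same tissue were compared to ask which genes part the cell types. In the heart Gbp3, Gbp7, Igtp, Stat2, Zbp1, Ifi27l2a and Samhd1 were higher in Tregs without overlap and Mx1 lower. EdgeR called 0 members there (0.0667% of all genes); 6 had an unadjusted p under 0.05 (7.81% of all genes), DESeq2 called 4 (6.27%) and limma-voom 0 (1.37%). In the heart the libraries of the groups did not overlap for 7 members that were higher (4.07% of all genes) and 1 that was lower (8.17%). In the spleen edgeR called 0 members (0.06% of all genes); 6 had an unadjusted p under 0.05 (7.33% of all genes), DESeq2 called 1 (5.82%) and limma-voom 0 (0.907%). Between the spleen groups the libraries of the groups did not overlap for 7 members that were higher (7.12% of all genes) and 2 that were lower (5.67%). In NDLN edgeR called 0 members (0.3% of all genes); 3 had an unadjusted p under 0.05 (11.6% of all genes), DESeq2 called 1 (11.1%) and limma-voom 0 (1.7%). Between the NDLN groups the libraries of the groups did not overlap for 2 members that were higher (7.99% of all genes) and 1 that was lower (4.16%). Samhd1 and Gbp3 were higher in Tregs without overlap in each of the 3 tissues.

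Whether the heart difference itself departs between Tregs and Tconvs was tested by interaction. For heart against spleen edgeR called 0 members (0.0133% of all genes); 2 had an unadjusted p under 0.05 (7.5% of all genes), DESeq2 called 2 (5.78%) and limma-voom 0 (0.22%). Isg20 had the smallest p. For heart against NDLN edgeR called 0 members (0.0133% of all genes); 3 had an unadjusted p under 0.05 (9.94% of all genes), DESeq2 called 2 (9.69%) and limma-voom 0 (0.56%). Rsad2 led with 11.40 on the log2 scale (edgeR adjusted p = 0.385), and without NDLN Tconv replicate 2 this was -0.52. For Irf1 the interactions were 0.26 (SE 0.72) and 0.32 (SE 0.72) on the log2 scale, with an edgeR adjusted p of 1 for both. Over all 7 groups together edgeR called 3 members for any difference, Irf1 (adjusted p = 0.000428), Samhd1 (0.00711) and Ifi203 (0.0478), where it called 3.3% of all genes; 10 had an unadjusted p under 0.05 (19% of all genes), DESeq2 called 7 (12.6%) and limma-voom 5 (10.1%). With the library set as a covariate only Irf1 passed (edgeR adjusted p = 0.00276), against 0.0731 for Samhd1 and 0.28 for Ifi203. The share of all genes called in that refit is not given here.

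Genes of the interferon pathway outside the 43 members were taken as a list of 19, of which 17 passed the filter on low counts. The list holds ligands, receptor chains, kinases, transcription factors and feedback inhibitors, so not all of it lies upstream of the members. By edgeR 1 of 17 was called in heart against spleen Tregs (0.147% of all genes), 2 in heart against NDLN Tregs (0.533%), 2 in heart against spleen Tconvs (0.473%) and 1 in heart against NDLN Tconvs (2.88%), all higher in the heart. In the same order 5, 4, 5 and 8 had an unadjusted p under 0.05 (11.7, 15.5, 12.5 and 18.6% of all genes), DESeq2 called 3, 3, 4 and 6 (9.48, 13.2, 10.6 and 18.9%) and limma-voom 2, 2, 1 and 1 (1.89, 3.05, 1.81 and 7%). In the other 5 comparisons of a pair of groups edgeR called 0 (0.00667 to 0.3% of all genes), 0 to 3 had an unadjusted p under 0.05 (7.33 to 11.6%), DESeq2 called 0 to 2 (5.82 to 11.1%) and limma-voom 0 to 1 (0.28 to 1.7%). Ifngr1, the ligand-binding chain of the interferon gamma receptor, was the leading one. It stood at 2352, 1942 and 2018 CPM in Tregs of the heart and 2662, 2112 and 2046 in its Tconvs, against 838, 674 and 263 in MLN, 224, 302 and 237 in spleen and 147, 175 and 133 in NDLN Tregs. Spleen Tconvs had 40.9, 294 and 108 CPM and NDLN Tconvs 218, 236 and 88.7. All heart libraries were above every lymphoid library. Ifngr1 rose 8.27-fold in heart against spleen Tregs (log2 fold change 3.05, SE 0.54, edgeR adjusted p = 0.0222), 13.9-fold against NDLN Tregs (log2 fold change 3.79, SE 0.56, edgeR adjusted p = 0.0031), 15.4-fold in heart against spleen Tconvs (log2 fold change 3.94, SE 0.56, edgeR adjusted p = 0.00394) and 12.6-fold against NDLN Tconvs (log2 fold change 3.65, SE 0.55, edgeR adjusted p = 0.00244). Among the 16 libraries alone the log2 fold changes were 2.96, 3.73, 3.80 and 3.48 and the edgeR adjusted p 0.0576, 0.0132, 0.075 and 0.0396. Stat3, which relays interleukin signals and is also activated by type I interferon, had 184, 177 and 211 CPM in Tregs of the heart and 133, 292 and 92.5 in its Tconvs. In lymphoid groups its means were 92.5 CPM in MLN, 24.6 in spleen and 21.3 in NDLN Tregs and 16.1 and 38.8 in spleen and NDLN Tconvs. It rose in heart against NDLN Tregs (log2 fold change 3.16, SE 0.65, edgeR adjusted p = 0.0263) and in heart against spleen Tconvs (log2 fold change 3.42, SE 0.66, edgeR adjusted p = 0.0225), with log2 fold changes of 3.22 and 2.53 and adjusted p of 0.105 and 0.777 among the 16 libraries.

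Other pathway genes named here did not pass. Ifng, the gene of interferon gamma itself, had 93.4 ± 80.9 CPM in heart Tregs, 476 ± 278 in heart Tconvs, 101 ± 43.7 in spleen Tconvs and 26.1 ± 28.9 in NDLN Tconvs, with edgeR adjusted p of 0.713 and 0.303 for heart against spleen and NDLN Tconvs. Of the type I ligands, Ifna4 had 0 counts in all libraries and Ifnb1 had 48 counts in heart Tconv replicate 1 and 0 in the other libraries. Ifnar1, a type I receptor chain, had means of 112 and 126 CPM in heart Tregs and Tconvs, and the feedback inhibitor Socs3 had 55.4 and 53. In spleen and NDLN, Ifnar1 means were 34.9 and 49.7 CPM in Tregs and 19.7 and 31.3 in Tconvs. Those of Socs3 were 9.27 and 6.82 in Tregs and 6.57 and 41 in Tconvs, and those of Ifng 16.3 and 9.63 in Tregs. In raw counts MLN Tregs had 4227, 2043 and 1103 of Ifnar1, against 4051, 1591 and 2468 in heart Tregs. They had 385, 187 and 199 of Socs3 and 0, 721 and 276 of Ifng.

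**Figure D5:**
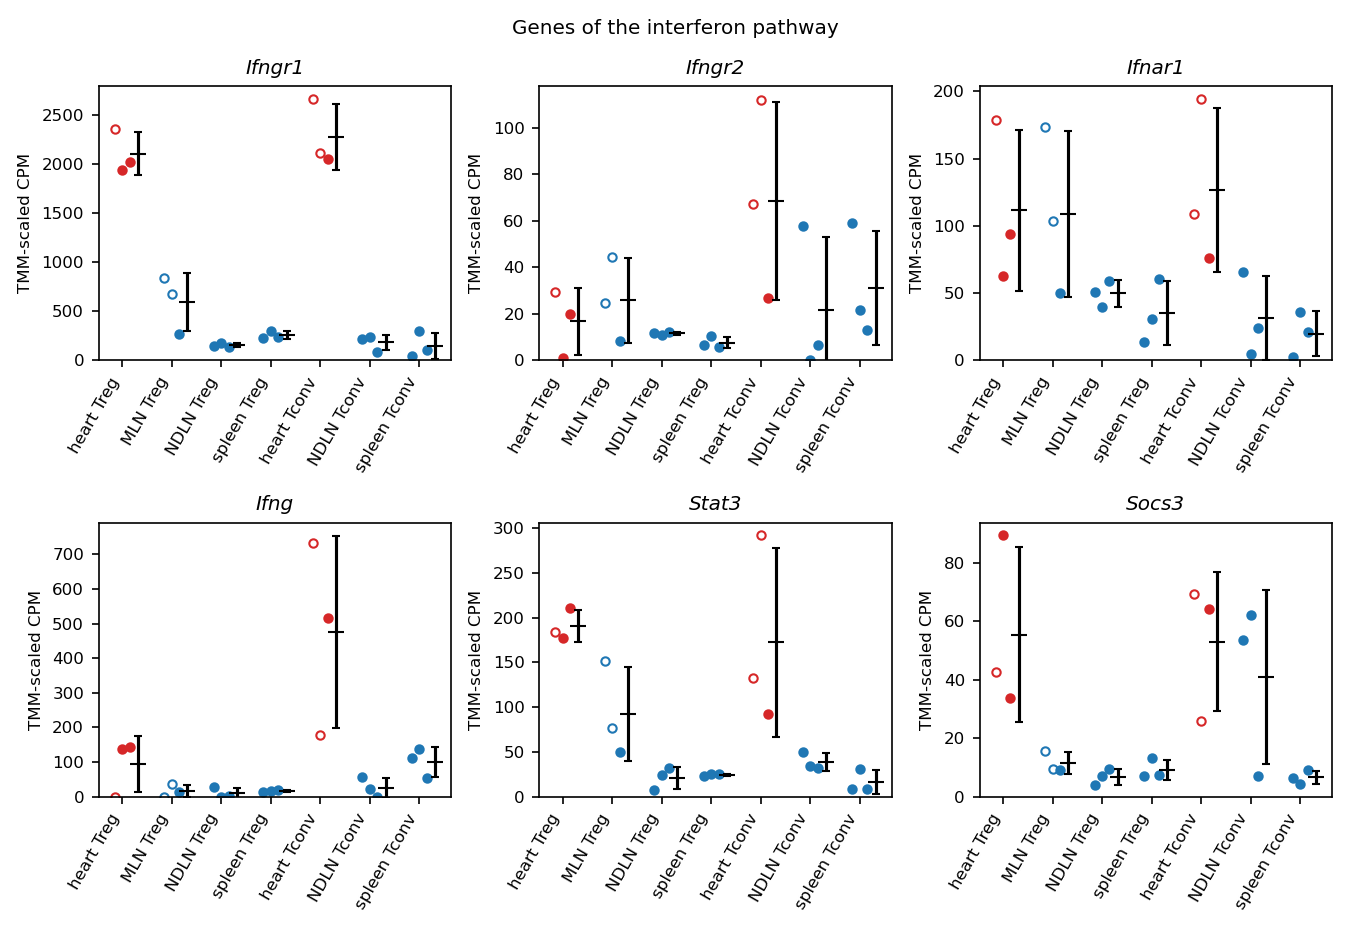
TMM-scaled CPM of 6 genes of the interferon pathway in each library, with mean ± SD per group; heart in red, open circles for the 5 libraries of the smaller set. Ifngr1 stands at 1942 to 2662 in heart libraries and at most 838 elsewhere, Stat3 is also highest in the heart groups by mean, and Ifng spreads widely among heart Tconvs.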

How the data were processed

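RNA-seq gene counts of 21 libraries in 7 groups of 3 were used as deposited by the authors, which are whole and raw. CASAVA 1.8.2, HISAT2, HTSeq 0.6.0 and build mm10 are named, per the submitters' processing notes. For the annotation, strand setting and reads that match several genes, the entry is "not given in the sources used here", which leaves overlapping genes and close relatives uncertain. Library totals ran from 14515387 to 28323649 counts. Genes were filtered with edgeR's filterByExpr (minimum count 10, minimum total 15), leaving 14996 of 49510. TMM scaling and a quasi-likelihood fit with 1 coefficient per group over all 21 libraries (edgeR 4.0.16, R 4.3.3) gave 9 comparisons of a pair of groups, 2 interactions and a test of any difference, with Benjamini-Hochberg adjustment over all genes tested. Standard errors are the log2 fold change divided by the square root of F. The procedure was run on simulated data with less spread than these data, whose common dispersion was 2.19, and with larger changes than those of the called members. That run does not measure power or error at the spread and fold changes reported here. Summed levels use CPM of the library total. Counting intervals (95%) and floors (3 counts) cover counting error only. Positions come from GENCODE M21 and promoters from RefSeq.

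The members, lists and tests were chosen with earlier results of these data known. Values in every library are given for members called in any comparison, for those with the highest mean in each list (4 type I targets, 4 GTPases, 4 other effectors, 2 of each other list) and for the member with the smallest p in each comparison. Alternatives were DESeq2 1.42.0, limma-voom (limma 3.58.1), other size factors, no filter, only the groups compared, a replicate block, the library set as a covariate or its larger part alone, and leaving out each library, and, added after seeing the data, low-count folds without the library with the most counts. Some items are not reported here.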

Additional observations from a re-analysis of the deposited data

How the results depend on the processing

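Calls were few and moved with the tool and the filter. Without the low-count filter edgeR called 1 member in heart against spleen Tregs, 3 in heart against NDLN Tregs, 2 in MLN against NDLN Tregs, 5 in heart against spleen Tconvs, 1 in heart Tregs against heart Tconvs, 3 between the spleen's cell types and 3 between those of NDLN, 2 in the heart-NDLN interaction and 9 for any difference. DESeq2 called 6, 8 and 3 in heart Tregs against spleen, NDLN and MLN Tregs, 4 in MLN against NDLN Tregs, 4 in heart against spleen Tconvs, 4 between the heart's cell types, 1 between those of spleen and 1 between those of NDLN, 2 and 2 in the interactions and 7 for any difference. Limma-voom called 1 in heart against spleen Tregs, 1 in heart against spleen Tconvs, 2 in heart against NDLN Tconvs and 5 for any difference. In heart against NDLN Tconvs the count was 1 with only the groups compared, 1 with the library set as a covariate and 0 among the 16 libraries, and for any difference 1 and 1 with the last pair of settings. Leaving out each library in turn gave 1 to 3 in heart against NDLN Tconvs and 0 to 1 in heart against spleen Tconvs and in heart against spleen and NDLN Tregs. Without NDLN Tconv replicate 2 Rsad2 turned to 2.04 (NDLN Tregs against Tconvs) and -0.52 (heart-NDLN interaction) on the log2 scale, the ends of ranges from -11.94 to 2.04 and from -0.52 to 13.45 over the libraries left out. The cause of these shifts was not tested. For edgeR without the filter and for its other refits, the replicate block among them, the share of all genes called is not given here. Those counts do not tell a change in the members from a change in all genes.

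Of 63 pairs of libraries with the same replicate number 3 had a correlation of deviations over 0.1, and the labels tie the numbers to no animal, batch or day, so the numbers were not used as pairs. Yet 15 of 21 libraries correlated best with their own number, out of 3 numbers, so the numbers cannot be taken as unlinked. The reason was not tested. The median correlation was -0.000235 for the same number and -0.00083 for other numbers. The smaller library set holds only replicates 1 and 2, and its part in this was not tested. With the replicate number as a block, edgeR called 1 member (Irf1) in heart against spleen Tregs and 1 (Irf1) in heart against spleen Tconvs, and the counts of the other comparisons stayed within 1.5 times.

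Summed CPM was also taken without the largest member of a list, which must lower it, and with other denominators. A denominator with genes left out must raise it. Sums that moved by the SD of their group or more are listed. As CPM of the library total, all 43 members had mean sums of 8427, 9234, 8694 and 9734 in heart, spleen, NDLN and MLN Tregs. In heart, spleen and NDLN Tconvs these means were 5165, 4352 and 6635. Type I targets came to 263 in MLN Tregs with TMM scaling, 361 with mitochondrial, ribosomal protein and haemoglobin genes left out of the denominator and 241 without Ifit1, to 90.3 in spleen Tregs without Ifit1 and to 519.7 in heart Tconvs among the 16 libraries. GTPases came to 661 in heart Tconvs with TMM scaling, to 600.1 and 762 in spleen and NDLN Tconvs with that denominator, to 845, 514 and 312 in heart Tregs, heart Tconvs and NDLN Tconvs without Igtp and to 677 in MLN Tregs among the 16. All 43 members came to 10013, 12209, 5868, 6301 and 10735 in heart Tregs, spleen Tregs, heart Tconvs, spleen Tconvs and NDLN Tconvs with that denominator, to 4666, 3319, 3004 and 5623 without Ifi27l2a in heart, spleen, NDLN and MLN Tregs, to 3945, 2276 and 2607 without it for Tconvs of heart, spleen and NDLN, and to 5958 in heart Tconvs among the 16. 18 of the 43 members were at 0 counts in at least 1 library, and folds against such groups rest on few counts.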
